A study of Mus musculus with 8 samples.

Results

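The immune genes, Cd180, Cd101, Ccr7, Ciita, Nod2 and Gpr65, carried m6A peaks in denervated muscle and none in innervated muscle. Their peaks were taken as every entry under these names in 4 lists of peaks, and all 6 genes were found among the 5987 gene names that the lists hold between them. The lists come from m6A MeRIP-seq of gastrocnemius, a calf muscle, in male C57BL/6 mice aged 10 weeks. In this assay, RNA fragments bearing N6-methyladenosine (m6A) are pulled down with an antibody and compared with the input RNA. The denervated group was studied 14 days after denervation and the innervated group was the muscle of the other leg, labelled untreated. Each group has 2 immunoprecipitated libraries with their inputs, 8 libraries in all, of total RNA from whole muscle. The control is thus a muscle of an operated animal.

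m6A is written into RNA by the Mettl3-Mettl14 methyltransferase complex and bound by YTH-domain proteins, which influence the decay and translation of the transcript. It is common near stop codons and in the 3′ part of mRNAs. Of the 6 genes, Nod2, Gpr65 and Ccr7 encode proteins through which leukocytes sense microbes, acidity or chemokines. Cd180 is a relative of the Toll-like receptors, with leucine-rich repeats, found on B cells and macrophages. Nod2 is a cytosolic sensor of fragments of the bacterial cell wall. Gpr65 is a proton-sensing receptor coupled to G proteins. Ccr7 is the chemokine receptor that guides T cells and mature dendritic cells to lymph nodes. Cd101 is an immunoglobulin-family surface protein of myeloid and T cells. Ciita is the transactivator of the MHC class II genes. Skeletal muscle holds resident macrophages and other leukocytes between its fibres.

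The 6 genes were chosen by their calls, that is, by the presence of peaks in both denervated lists and in neither innervated list, so the split between the groups is a description and carries no test. In the list of innervated replicate 1 the 6 genes had 0 peaks, and in that of innervated replicate 2 they had 0 as well. The list of denervated replicate 1 held 19 of their peaks and that of denervated replicate 2 held 20. The groups did not overlap for any of the 6 genes. Of the 5987 genes with a peak, 205 (3.42%) were called in both denervated lists and neither innervated list, and 188 (3.14%) had the opposite call. The 2924 genes called in all 4 lists made up 48.8%. The lists held 9327 to 10300 peaks each. A peak needs enough reads of the transcript, and read counts and RNA levels were not analysed here. The absence of a peak therefore does not show that a transcript was unmethylated. In these samples of whole muscle, fewer cells of a type and less RNA per cell cannot be told apart.

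**Figure D1:**
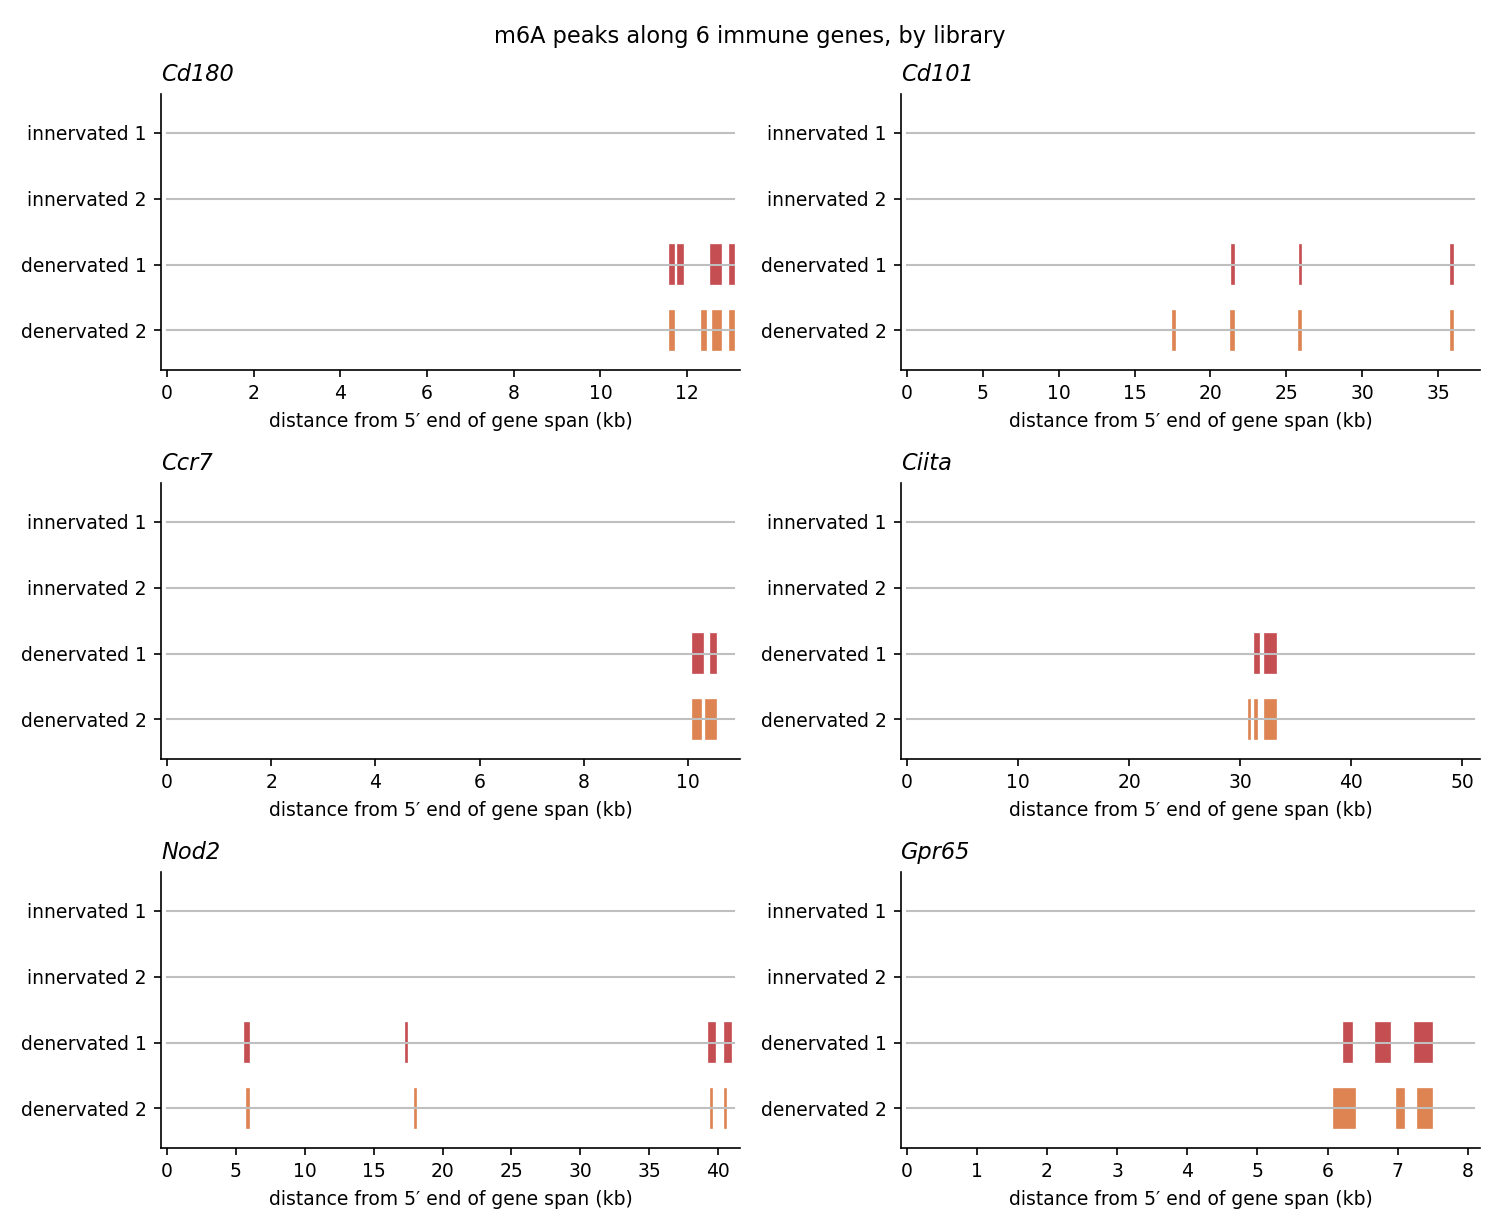
Position of each peak along the RefSeq span of its gene (x axis, kb from the 5′ end), with a row for each library. The innervated rows are empty, the denervated rows hold 19 and 20 peaks, and the widest Ciita block includes the intron between the parts of a spliced peak.

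Promoter sequences were available for 4 of the 6 genes, but not for Ccr7 and Ciita. They are shown because the sequences of the peaks themselves were not available. Each window of 300 bases surrounds a RefSeq start on GRCm38.p6, which for Nod2 lies inside the gene span and not at its edge, and is printed 5′ to 3′ along the strand of the gene. They are chr13:102693297-102693596 (plus strand) for Cd180, chr8:88647097-88647396 (plus) for Nod2, chr3:101029504-101029803 (minus) for Cd101 and chr12:98268385-98268684 (plus) for Gpr65. Capitals mark the motif GAGGAA or its reverse complement TTCCTC, the core bound by PU.1, a myeloid and B cell transcription factor encoded by Spi1.
Cd180: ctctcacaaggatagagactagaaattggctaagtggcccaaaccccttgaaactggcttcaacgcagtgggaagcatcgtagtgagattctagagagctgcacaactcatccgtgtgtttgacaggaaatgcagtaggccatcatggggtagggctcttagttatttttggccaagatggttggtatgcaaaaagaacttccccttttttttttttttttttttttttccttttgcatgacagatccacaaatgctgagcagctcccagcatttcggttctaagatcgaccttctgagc
Nod2: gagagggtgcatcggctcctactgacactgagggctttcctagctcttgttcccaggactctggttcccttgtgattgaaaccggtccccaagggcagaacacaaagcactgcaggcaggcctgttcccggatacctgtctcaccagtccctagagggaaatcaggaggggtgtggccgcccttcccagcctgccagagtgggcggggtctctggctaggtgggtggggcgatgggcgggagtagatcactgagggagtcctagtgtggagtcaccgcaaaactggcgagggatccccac
Cd101: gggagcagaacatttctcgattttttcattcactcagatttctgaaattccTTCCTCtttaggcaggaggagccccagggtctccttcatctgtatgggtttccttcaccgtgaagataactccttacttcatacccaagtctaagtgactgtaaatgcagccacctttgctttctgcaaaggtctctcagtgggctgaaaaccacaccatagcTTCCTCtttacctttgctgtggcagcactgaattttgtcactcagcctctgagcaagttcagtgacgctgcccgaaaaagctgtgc
Gpr65: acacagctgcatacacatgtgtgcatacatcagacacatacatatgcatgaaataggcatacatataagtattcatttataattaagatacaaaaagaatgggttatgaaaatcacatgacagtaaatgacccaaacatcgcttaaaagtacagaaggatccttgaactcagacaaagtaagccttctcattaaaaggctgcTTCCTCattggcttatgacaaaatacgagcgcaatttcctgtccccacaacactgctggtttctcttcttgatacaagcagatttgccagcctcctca

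The Cd101 window held 2 matches to the motif and the Gpr65 window 1, all on the reverse strand. The windows of Cd180 and Nod2 held 0. Among all 32851 windows of the same length, 28.3% held the motif on either strand. No peak of any list lay in these 4 windows, and the peaks described next lay downstream of them. Spi1 was called in all 4 lists, with 1 peak in each innervated list, 2 in denervated replicate 1 and 1 in denervated replicate 2.

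Cd180 (chromosome 13, 102693547 to 102706631, plus strand, mm10) had 4 peaks in each denervated list. All 8 lay in the last 1485 bases of the gene span. The last peak, from 102706532 to 102706631, stopped at the last base of the span. It and the first peak, from 102705147 to 102705246, had the same start and end in both lists. A longer peak between them ran from 102706087 to 102706334 in denervated replicate 1 and from 102706136 to the same end in denervated replicate 2. The remaining peak differed: it ran from 102705345 to 102705444 in denervated replicate 1 and from 102705889 to 102705988 in denervated replicate 2. Thus 3 of the 5 regions of Cd180 were called in both denervated lists. Between neighbouring Cd180 peaks lay 98 to 642 bases.

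Nod2 (chromosome 8, 88647315 to 88688474, plus strand) had 5 peaks in denervated replicate 1 and 4 in denervated replicate 2. They were spread over most of the gene, across 35226 and 34779 bases. The most upstream region, from 88653001 to 88653249, began 5686 bases after the start of the span and was called in both lists. In the middle of the gene, the lists had different peaks, from 88664652 to 88664751 in denervated replicate 1 and from 88665297 to 88665397 in denervated replicate 2. A long gap of 21918 and 21371 bases followed. Near the 3′ end, the regions from 88686670 to 88687067 and from 88687779 to 88687928 were called in both lists. The region nearest the end, from 88688027 to 88688226, was called in denervated replicate 1 alone. The first of these 3′ regions measured 398 bases in denervated replicate 1, the longest peak of the 6 genes, and 101 bases in denervated replicate 2. In all, 3 of the 6 Nod2 regions were shared by both denervated lists.

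Of the surface receptors, Gpr65 (chromosome 12, 98268635 to 98276722, plus strand) had 3 peaks in each denervated list. Its most downstream region, from 98275874 to 98276123, ended at the same base in both lists, 599 bases before the end of the span. Its most upstream region, from 98274726 to 98275025, measured 101 bases in denervated replicate 1 and 300 bases in denervated replicate 2. The middle peak was at another place in each list, from 98275325 to 98275524 and from 98275624 to 98275724. So 2 of its 4 regions were shared. The whole cluster covered 1249 bases in denervated replicate 1 and 1398 bases in denervated replicate 2.

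Ccr7 (chromosome 11, 99144199 to 99155077, minus strand) had 2 peaks in each denervated list, the smallest number of the 6 genes. Both of its regions were called in both lists. The upstream region ran from 99144791 to 99144989 and the downstream region from 99144544 to 99144742, and they ended 592 and 345 bases before the 3′ end of the span. The peaks covered the same 446 bases from first to last in either list, with a gap of 147 bases in denervated replicate 1 and of 98 bases in denervated replicate 2.

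Cd101 (chromosome 3, 100992189 to 101029553, minus strand) had 3 peaks in denervated replicate 1 and 4 in denervated replicate 2. Its peaks stood far apart, with 3734 to 9834 bases of genome between neighbours. The region nearest the 3′ end, from 100993579 to 100993728, had the same start and end in both lists. The regions from 101003563 to 101003713 and from 101008020 to 101008169 were also shared, each with 1 edge in common. The most upstream peak, from 101011904 to 101012003, was called in denervated replicate 2 alone. Thus 3 of its 4 regions were shared.

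Ciita, the transactivator, had 2 peaks in denervated replicate 1 and 3 in denervated replicate 2 (chromosome 16, span 10480014 to 10531064, plus strand). They lay 17850 to 20123 bases before the end of the span, unlike those of Cd180, Ccr7 and Gpr65, which lay close to it. A spliced peak was found at the same junction in both lists: its second block ran from 10513129 to 10513214, and 774 bases separated it from the first block, which ended at 10512354. The region from 10511340 to 10511740 was shared as well, and the peak from 10510841 to 10510941 was called in denervated replicate 2 alone. RefSeq places the long noncoding RNA LOC115488669, from 10502573 to 10518504, over all of these peaks. Its strand is not part of the gene table used, so whether its reads could count towards Ciita was not tested. The neighbouring gene Dexi, on the minus strand, overlaps the 3′ end of the Ciita span and carried peaks in all 4 lists. None of the Dexi peaks overlapped those of Ciita, the nearest starting at 10530356.

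Across the 6 genes the 39 peaks made 24 regions, of which 15 were called in both denervated lists, 4 in denervated replicate 1 alone and 5 in denervated replicate 2 alone. Of the peaks in denervated replicate 1, 78.9% lay in a shared region, against 75.4% of all peaks of that list. In denervated replicate 2 these shares were 75% and 75.5%. For the peaks of all denervated-only genes they were 84.2% and 81.01%, above the shares of the 6 genes. Like the 6 genes, these were chosen for calls in both denervated lists, whereas the whole lists also hold genes called in only 1. Of the 15 shared regions, 3 had the same start and end in both lists and 11 had at least 1 edge in common. Over all genes, 14.1% of 4292 regions with a single peak in each denervated list had both edges in common and 59.8% had at least 1. The peaks were short. The median length was 150 bases in denervated replicate 1 and 149.5 in denervated replicate 2, against 200 and 201 for all denervated-only genes and 250 in both whole lists. Peaks of 100 bases, give or take 2, made up 47.4% and 45% of the peaks of the 6 genes, and 16.7% and 17.6% of the whole lists.

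Most of the peaks, 23 of 39, stood in the last 20% of the gene span. The peaks of the other denervated-only genes that could be placed were there in 50.6% of cases (363 of 717). The genes differed in this: all 8 Cd180 peaks and all 4 Ccr7 peaks lay there, 4 of 6 Gpr65 peaks, 5 of 9 Nod2 peaks, 2 of 7 Cd101 peaks and 0 of 5 Ciita peaks. Spans include introns, so these places are not places along the mRNA. Of the 27 gaps between neighbouring peaks, 18 were under 1000 bases of genome.

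Each of the 6 genes had at least 2 peaks in both denervated lists. Of the 205 denervated-only genes, 80 (39%) had at least 2 peaks in both lists, 32 (15.6%) at least 3 and 9 (4.39%) at least 4. Cd101, Cd180, Gpr65 and Nod2 had at least 3, and Cd180 and Nod2 at least 4. Among the 188 innervated-only genes, the same minimums in both innervated lists were met by 76 (40.4%), 34 (18.1%) and 11 (5.85%). With both lists summed, the 6 genes had 4 to 9 peaks, with a median of 6.5. The other 199 denervated-only genes had 2 to 23, with a median of 3. Because the genes were chosen with these calls known, the numbers are given without a test.

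**Figure D2:**
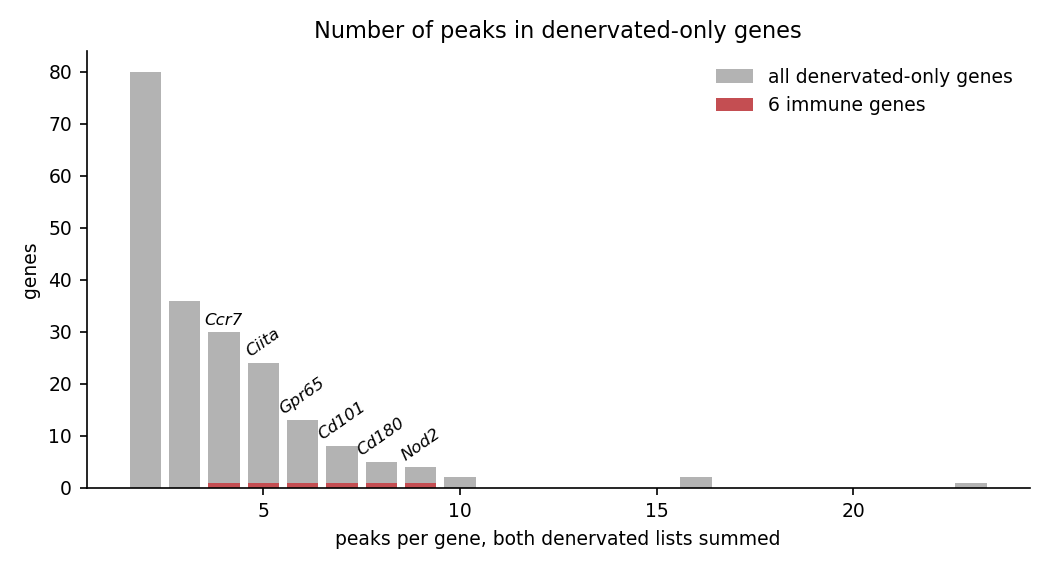
Number of genes (y axis) by peaks per gene, summed over both denervated lists (x axis), for the 205 denervated-only genes in grey, with the 6 immune genes in red. The immune genes stand at 4 to 9 peaks, to the right of the tallest bar.

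The deposited score of a peak was turned into a percentile within its list, 100 being the smallest score. The scores ran from 0 to 0.023 and their meaning is not given, so a small score was read as a strong peak with that reserve. Cd180 stood at a percentile of 98.2 in denervated replicate 1 and 96.4 in denervated replicate 2. Its peaks had a score of 1e-10 in the first list, sharing ranks 170 to 176 of 9804, and of 1.4e-10 in the second, sharing ranks 338 to 348 of 9496. By the mean of both lists it came first among the 205 denervated-only genes. Cd101 stood at 93.9 and 89.0, the 7th place, and Gpr65 at 89.6 and 85.6, the 9th place. Nod2 stood at 87.2 and 75.8 for its best peaks, the 22nd place. All peaks of a gene in a list had the same score, apart from the middle Nod2 peak of denervated replicate 1, which stood at 81.6. Equal scores were common in general: of the genes with several peaks, 55.8% in denervated replicate 1 and 70.1% in denervated replicate 2 had 1 score for all of them. The percentile therefore describes the gene more than the single peak.

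Ccr7 and Ciita differed widely between the denervated lists. Ccr7 stood at 23.2 in denervated replicate 1 and 85.6 in denervated replicate 2, a difference of 62.4 points. Ciita stood at 9.38 and 73.0, a difference of 63.6 points. Both were low in the same library, and by the mean of both lists they took places 79 and 115 among the 205. The other 4 genes differed by 1.85 to 11.4 points and were higher in denervated replicate 1. Among the 3587 genes called in both denervated lists, the median difference was 16.4 points, and 5.94% of genes differed by at least as much as Ccr7.

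**Figure D3:**
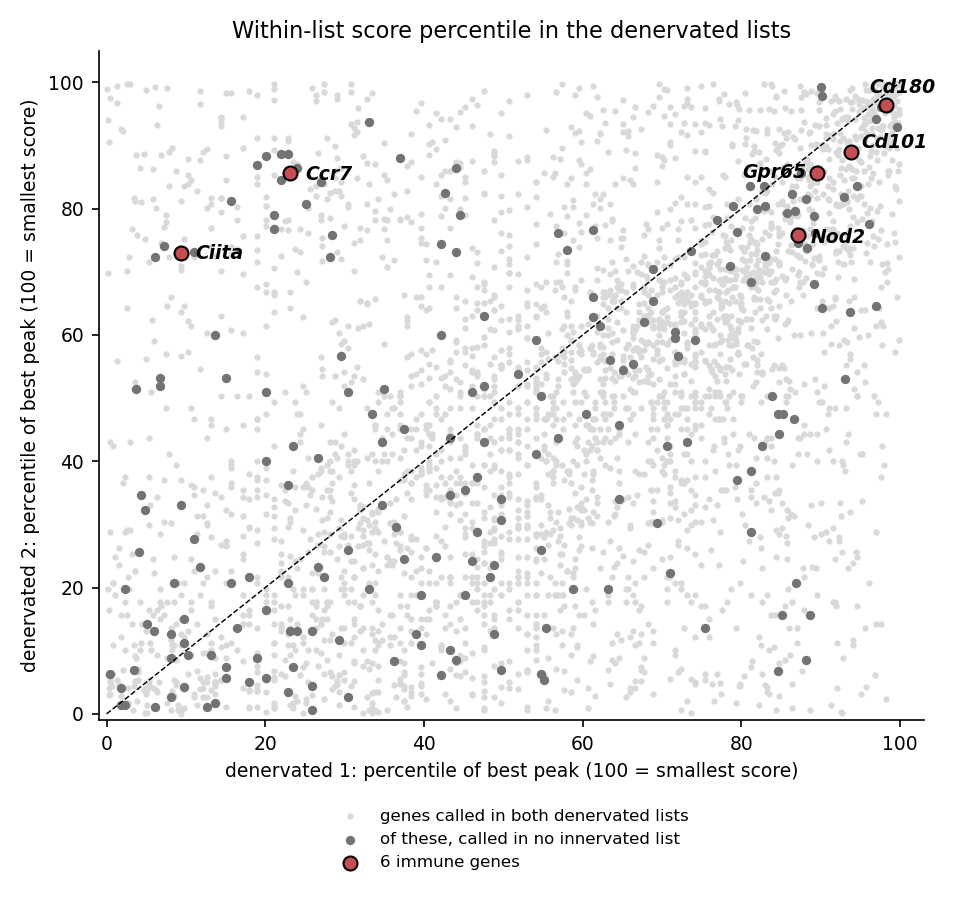
Percentile of the best peak of each gene in denervated replicate 1 (x axis) and denervated replicate 2 (y axis), with 100 at the smallest score. Cd180, Cd101, Gpr65 and Nod2 lie at the upper right near the dashed line of equal values, while Ccr7 (23.2 and 85.6) and Ciita (9.38 and 73.0) lie at the upper left.

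The genes with the most similar percentiles over the 4 libraries were all denervated only, since an absent peak was set at 0. Likeness was the mean absolute difference over the 4 libraries, in percentile points. Nearest to Cd180 were Trim44 (0.241) and Palm2 (0.878). Nearest to Cd101 were Mycl (1.54) and Gpr65 itself (1.93), and nearest to Gpr65 were Ndufaf4 (0.504) and Ncald (1.37). For Nod2 these were Myom1 (0.319) and Fzd10 (0.595). Ccr7 was followed by Cmtm7 (0.412) and Ube2j2 (0.551), and Ciita by Klf5 (0.427) and Ppap2c (0.827). Each of these pairs rests on 2 libraries with a peak.

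Other immune genes of the same pathways and cells were next counted. In 12 lists of immune genes with 248 genes in all, the 6 genes left out, 164 had no peak and 84 had a peak in at least 1 library. Of these 84, only Rfxank (1.19%) was called in both denervated lists and neither innervated list, and Ackr3 and Cd200 (2.38%) had the opposite call, against 3.42% and 3.14% of all genes. A further 46 were called in all 4 lists (54.8%, against 48.8% of all genes), and 20 in 2 or 3 lists of both groups (23.8%, against 25.02%). The number of immune-list genes with a peak was 60 and 67 in innervated replicates 1 and 2, and 65 and 66 in denervated replicates 1 and 2. Over all genes the same lists called 69.4%, 77.6%, 76.9% and 70.7% of the 5987 genes. The groups overlapped. The innervated mean was 63.5 ± 4.95 (SD, n = 2), the denervated mean was 65.5 ± 0.707 (SD, n = 2), and a two-sided exact permutation test of the difference gave p = 1. With 2 against 2 libraries its smallest possible p is 0.333. The direction turned without innervated replicate 1, the difference of denervated minus innervated being -1.5.

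**Figure D4:**
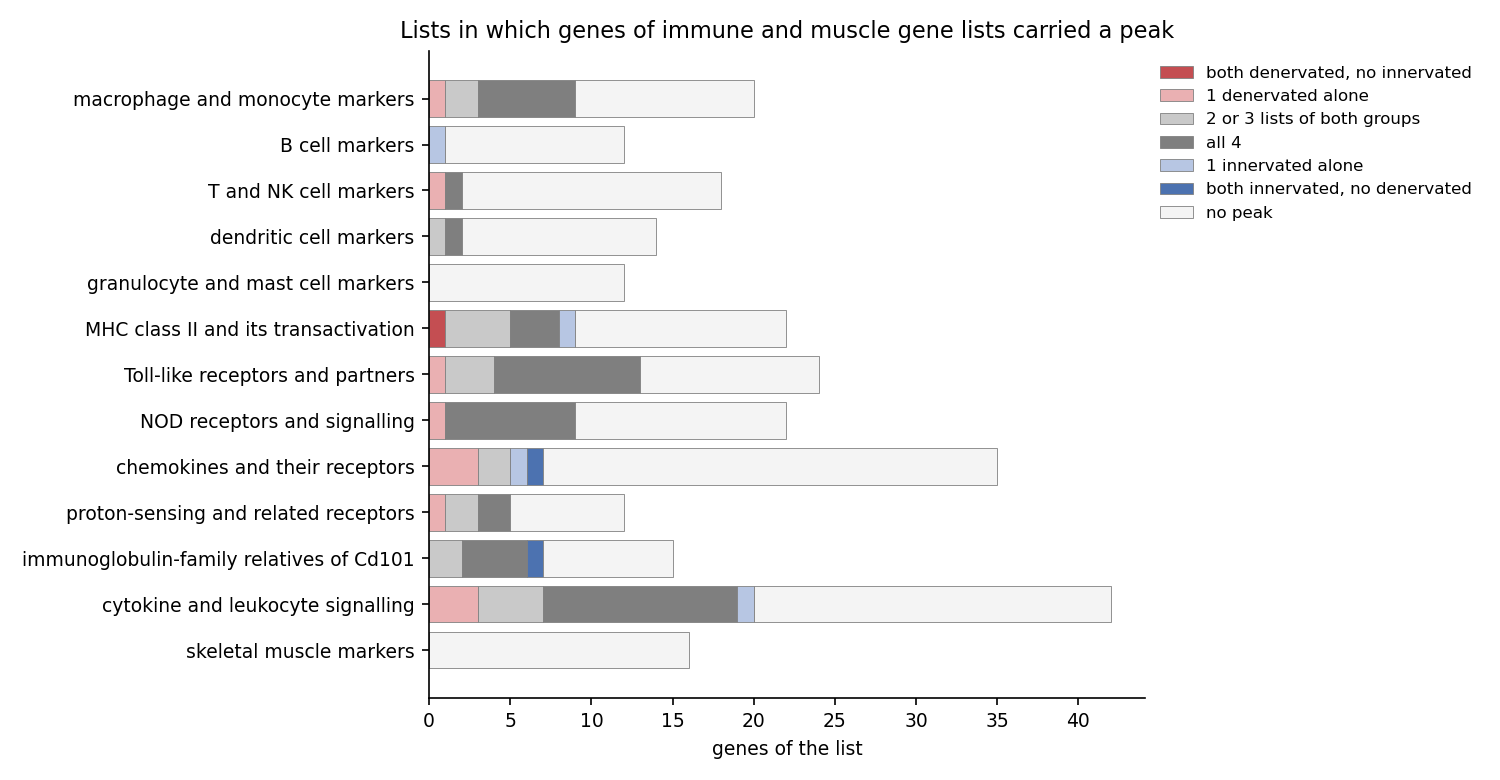
Number of genes (x axis) of each gene list by the libraries in which they carried a peak. Red marks genes called in both denervated lists alone, which is Rfxank among the MHC class II genes, dark blue marks Ackr3 and Cd200, and the skeletal muscle list has no gene with a peak.

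The partners of Ciita gave the single denervated-only gene. Ciita does not bind DNA itself and is recruited by the RFX complex of Rfx5, Rfxap and Rfxank, with NF-Y and CREB. Rfxank had 0 peaks in both innervated lists, 2 in denervated replicate 1 and 1 in denervated replicate 2, at percentiles of 38.95 and 12.6. Rfxap was called in all 4 lists, as were Nfya, an NF-Y subunit, and Ifngr1, a subunit of the interferon gamma receptor. Rfx5 had 2 peaks in each innervated list, 1 in denervated replicate 1 and 0 in denervated replicate 2. No peak was called in the class II genes H2-Aa, H2-Ab1 and H2-Eb1 or in Cd74, the invariant chain. Of the 22 genes in this list, 9 had a peak, and 3 of these were called in all 4 lists.

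Around Nod2, most signalling genes with a peak were called in both groups. Of 22 genes, 9 had a peak and 8 of them were called in all 4 lists, among them Ripk2, the kinase that Nod2 engages, and the ubiquitin ligases Birc2 and Birc3. The remaining one was Nod1, the close relative of Nod2, with 1 peak in denervated replicate 1 alone. For Cd180, 13 of 24 Toll-like receptor genes had a peak and 9 were called in all 4 lists. These included the receptors Tlr2 and Tlr3 and the adaptor Tirap. Of the other 4, Tlr6 had 3 peaks in denervated replicate 2 alone. In innervated replicates 1 and 2 and denervated replicates 1 and 2, Tlr8 had 0, 3, 4 and 4 peaks. In the same order, Tlr4 had 0, 3, 3 and 1 and Traf3 had 1, 0, 1 and 1. Ly86, which Cd180 needs to reach the cell surface, had no peak in any list.

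Of 35 chemokine and chemokine receptor genes, 0 were called in all 4 lists. Of the 7 with a peak, Ackr3, a scavenging receptor, was innervated only. Ccr1 and Cxcr4 had peaks in denervated replicate 2 alone, with 1 and 2 peaks. Ccl19 and Ccl21a, the ligands of Ccr7, had none. Among the proton-sensing receptors, Gpr132 had 3 peaks in denervated replicate 2 alone and Gpr4 had 3, 2, 2 and 0 peaks in innervated replicates 1 and 2 and denervated replicates 1 and 2. P2ry14 and Ptafr, receptors for a nucleotide sugar and for platelet-activating factor, were called in all 4 lists. Of the immunoglobulin-family list, Ptgfrn, Igsf10 and Cd276 were called in all 4 lists, and Cd200, an inhibitory ligand of myeloid cells, was innervated only. The cytokine and leukocyte signalling genes had 20 of 42 with a peak, 12 of them in all 4 lists, including Jak1, Socs3 and Il1r1. The partners and receptors named here for a missing peak or for a peak in part of the lists were chosen after their values were seen.

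Counting genes called in denervated lists but in no innervated list, whether in 1 or both, gave 12 of the 84 immune-list genes (14.3%, against 13.9% of all genes). The opposite side held 6 (7.14%, against 12.3%). Of the 12, 7 were called in denervated replicate 2 alone and 4 in denervated replicate 1 alone.

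Markers of immune cells, in 5 lists with 76 genes, were called for 10 genes in each innervated list and for 11 genes in each denervated list. Their summed peaks numbered 21 and 22 in the innervated lists and 25 and 24 in the denervated lists. The groups thus differed by 1 gene and did not overlap, but no single marker showed that split. Of the 14 markers with a peak, 0 were called in both denervated lists and neither innervated list. Ccr2 was called in denervated replicate 1 alone, at a percentile of 1.79, and Il7r in denervated replicate 2 alone. Over all genes, the percent called overlapped between the groups (69.4% and 77.6% against 76.9% and 70.7%), as did the number of peaks (9327 and 10300 against 9804 and 9496). Of 20 macrophage and monocyte markers, 9 had a peak: 7 and 7 of them in innervated replicates 1 and 2, and 8 and 7 in denervated replicates 1 and 2. The summed peaks of this list were 15 and 16 in the innervated lists and 17 and 13 in the denervated lists. Cd163, C1qa and C1qb, all macrophage genes, were called in all 4 lists, and the defining markers Adgre1, Cd68, Csf1r and Itgam had no peak. Of 12 B cell markers, Ebf1 alone had a peak, in innervated replicate 1, and Ms4a1 and Cd79a had none. Of 18 T and NK cell markers, Cd28 was called in all 4 lists and Il7r in denervated replicate 2 alone, with 3 peaks, while Cd3e had none. Of 14 dendritic cell markers, Zbtb46 was called in all 4 lists and Cd83 in all but innervated replicate 1. The 12 granulocyte and mast cell markers had none. The part of leukocyte numbers in the calls of the 6 genes was not tested. The 16 skeletal muscle markers, Acta1, Ckm, Myh4 and Ttn among them, also had no peak, so peak calls do not check the labelled tissue by these genes.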

How the data were processed

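The deposited data were 4 peak lists, 1 for each IP library set against its own input, without pooling. The value of a peak is a score per the file headers. STAR 2.4.2a and ChIPseeker are named as tools, and mm10 as the build, per the submitters' processing notes. Which peak caller was used, with which limit, and what the score means is not given in the sources used here. Read counts are not in these files, so the depth per library is unknown.

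Positions were converted to 1-based coordinates. Peaks sharing at least 1 base of their blocks on the same strand were linked into regions. Within-list percentiles were 100 at the smallest score, and ties shared their mean rank. Gene spans came from RefSeq on GRCm38.p6, the assembly of mm10. Python 3.11.15, pandas 2.3.3 and numpy 2.4.6 were used, and the functions were checked on simulated peaks.

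The members and the 13 gene lists were chosen with earlier results of these data known. The members were picked for their calls, so these carry no test. Genes named from the lists were, in list order, the first 4 that were group-specific and the first 3 called in all 4 libraries. Other list genes, and Dexi, were named after their values were seen. For each member, the 2 genes with the closest percentiles over 4 libraries were named. The count of immune-list genes per library was compared by a two-sided exact permutation test over 2 against 2 libraries. The labels number the replicates without naming separate animals, so p-values and spreads measure the spread between these samples. Alternatives were other score limits, equal list sizes, assignment by gene span, stricter overlap, joined peaks and leaving out each library. Some list genes are not reported here by name.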

Additional observations from a re-analysis of the deposited data

How the results depend on the processing

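The 6 genes kept their denervated-only call with equal numbers of peaks per list, with assignment by gene span and without each library in turn (6 to 6). With a library left out, fewer conditions have to be met, so that part holds by construction. When each list was reduced to the 50% of peaks of smallest score, Ccr7 and Ciita lost their call and 4 genes remained. Reduced to the 50% of largest score, 0 genes and 0 shared regions remained and the mean number of peaks fell to 2 per denervated list, from 19.5. That follows from the small scores of most of these genes. If large scores are read as strong, the median of the 6 mean percentiles is 16.9 in place of 84.5. Without each library the regions numbered 15 to 20 and the mean peaks 19 to 20. With a denervated library left out, the regions are only those of the remaining list and not shared ones. Of the 15 shared regions, 12 met a reciprocal overlap of 50%, and joining peaks within 500 bases gave 10.

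The difference in immune-list genes with a peak was 2 more in denervated muscle. With equal numbers of peaks per list it was 2.5 (exact permutation p = 0.333), and the groups did not overlap. It was 5 with the 50% of smallest score (exact permutation p = 0.667) and -1 with the 50% of largest score (exact permutation p = 1). Without each library the difference ran from -1.5 to 5.5. It fell below 0 without innervated replicate 1, and the cause was not tested. Its exact permutation p was 0.333 to 1 over these settings, some of which test a group of 1 library. The smallest possible p is 0.333, or 0.5 with the replicate block, so no setting could pass 0.05. With the replicate number as a block the difference was 2 (exact permutation of signs over 2 pairs, p = 1). Whether same-numbered libraries share an animal is not stated. Differences between numbers 1 and 2 in the percentiles of 5987 genes, an absent peak set at 0, correlated at 0.0054 between the groups, which gives no sign of pairing and does not exclude it. Depth is unknown, which limits every statement on a missing peak.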
